A study of Homo sapiens with 6 samples.

Results

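The 36 genes described here encode aminoacyl-tRNA synthetases. They were taken by name, at their RefSeq GRCh38 positions, and are 36 of 19974 protein-coding genes on chromosomes 1 to 22 and X. Accessible chromatin was mapped by ATAC-seq, in which a transposase cuts open DNA and tags it, in the human liver cancer (hepatocellular carcinoma) line Huh7, an established line. All 3 groups shared a knockout of ARID1A, a subunit of SWI/SNF chromatin remodelling complexes, and differed in what was put back by lentivirus. WT cells expressed ARID1A WT_Flag, V2084D cells expressed ARID1A V2084D_Flag, a missense form, and V2084D shSTUB1 cells had the V2084D protein plus a knockdown of STUB1, a chaperone-linked ubiquitin ligase. Each group had 2 libraries with 1 deposited peak list each. The labels name no control hairpin, do not say whether a line was 1 clone, and do not tie replicates to separate cultures.

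Aminoacyl-tRNA synthetases join each amino acid to its tRNA, the step that fixes the reading of the genetic code. Nuclear genes encode the enzymes of both compartments: most amino acids have a cytosolic enzyme and a separate mitochondrial one that is imported after synthesis. Several cytosolic enzymes sit together in a multi-synthetase complex, and many of their genes are known targets of ATF4, the transcription factor of the amino acid response. GARS1 and KARS1 make the enzymes of both compartments from 1 gene each. The genes are housekeeping genes, needed in every cell that makes protein.

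A gene counted as having a peak when a called peak came within 1000 bp of its start or its end. The lists were thin and unequal: the depth of each library relative to the shallowest was 1.014 and 1 for WT, 1.17 and 1.83 for V2084D and 1.49 and 1.23 for V2084D shSTUB1. A peak could be called from 3 reads at its summit, and the median summit held 8 to 12 reads. Where no peak is listed, the DNA may still have been open below what this depth could call. The labelled cell type could not be checked from the lists, since 8 of 12 hepatocyte markers, ALB among them, had no peak in any library. The others had one in some libraries, FOXA3 in all but WT replicate 2. Markers of other cell types were mostly without a peak as well (4 of 5 leukocyte, 3 of 4 endothelial, 3 of 5 fibroblast and stellate). But COL1A1, a collagen gene, had one in all 6, and KDR, an endothelial marker, in all but WT replicate 2. SPI1, a leukocyte marker, and ACTA2, a stellate marker, had one in some.

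Synthetase genes were open in most libraries. Of the 36, 26 and 21 had a peak in WT replicates 1 and 2, 24 and 32 in the V2084D replicates, and 31 and 28 in the V2084D shSTUB1 replicates. Among all protein-coding genes the shares were 32.3% and 24.2%, 31.1% and 54.7%, and 48.1% and 40.6% in the same order. The members' counts were thus lowest in the list with the fewest genes and highest in the list with the most. A peak in all 6 libraries was called at 16 members (44.4%, against 15.8% of all genes), and none in any library at 4 (11.1%, against 41.8%). The median member had a peak in 5 libraries and the median gene in 2. For a like housekeeping set, the 77 mitochondrial ribosomal protein genes had a peak in all 6 libraries in 20.8% of cases, and the 81 cytosolic ribosomal protein genes in 27.2%. No peak in any library was found for 9.09% and 3.7% of these genes, a smaller share than among the members. These are counts side by side, with no test of a difference.

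**Figure D1:**
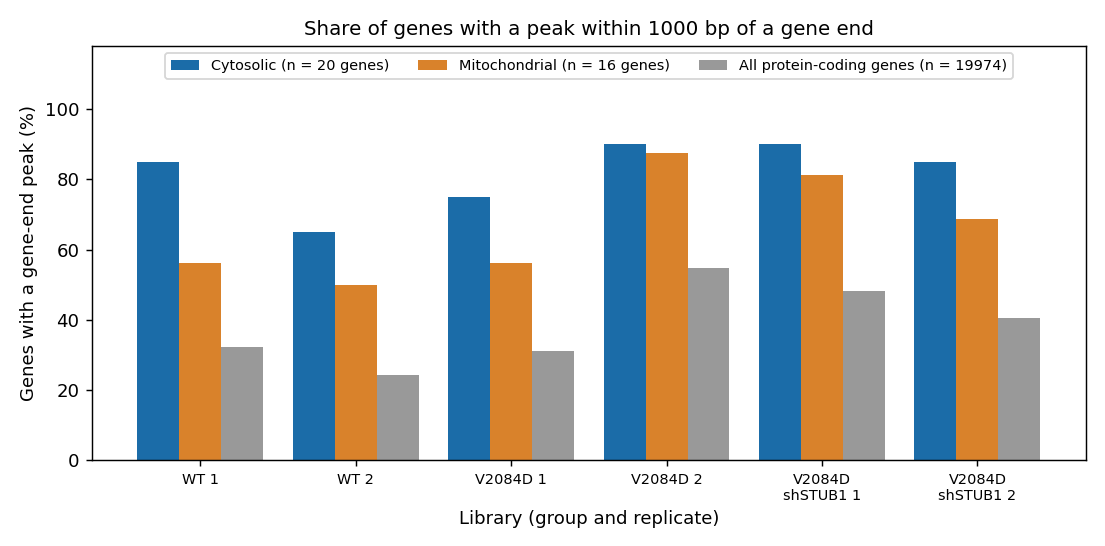
Share of genes (%, vertical axis) with a peak within 1000 bp of either gene end in each of the 6 libraries, for 20 cytosolic enzymes, 16 mitochondrial enzymes and all 19974 protein-coding genes. Both enzyme classes stand above all genes in every library, and all 3 sets have their lowest share in WT replicate 2.

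In 162 of the 216 combinations of a member and a library a peak was called. Its fold over local background, as the authors' caller gave it, ran from 3.37 to 11.8 with a median of 6.52, and its summit held 5 to 50 reads. Folds were not scaled for depth. Over all genes with a peak their medians were 5.85 and 5.77 for WT, 5.62 and 6.47 for V2084D, and 6.08 and 5.91 for V2084D shSTUB1. Strength was read within a list, as the percentile of the peak's −log10 q among all summits of that list. The members' median percentile was 80.4 and 57.4 for WT, 71.0 and 83.2 for V2084D and 78.5 and 59.4 for V2084D shSTUB1. For all genes with a peak it was 59.6 and 57.4, 57.2 and 72.8, and 67.2 and 62.2. The members' median was above that of all genes in 4 libraries, equal to it as rounded in WT replicate 2 and below it in V2084D shSTUB1 replicate 2.

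**Figure D2:**
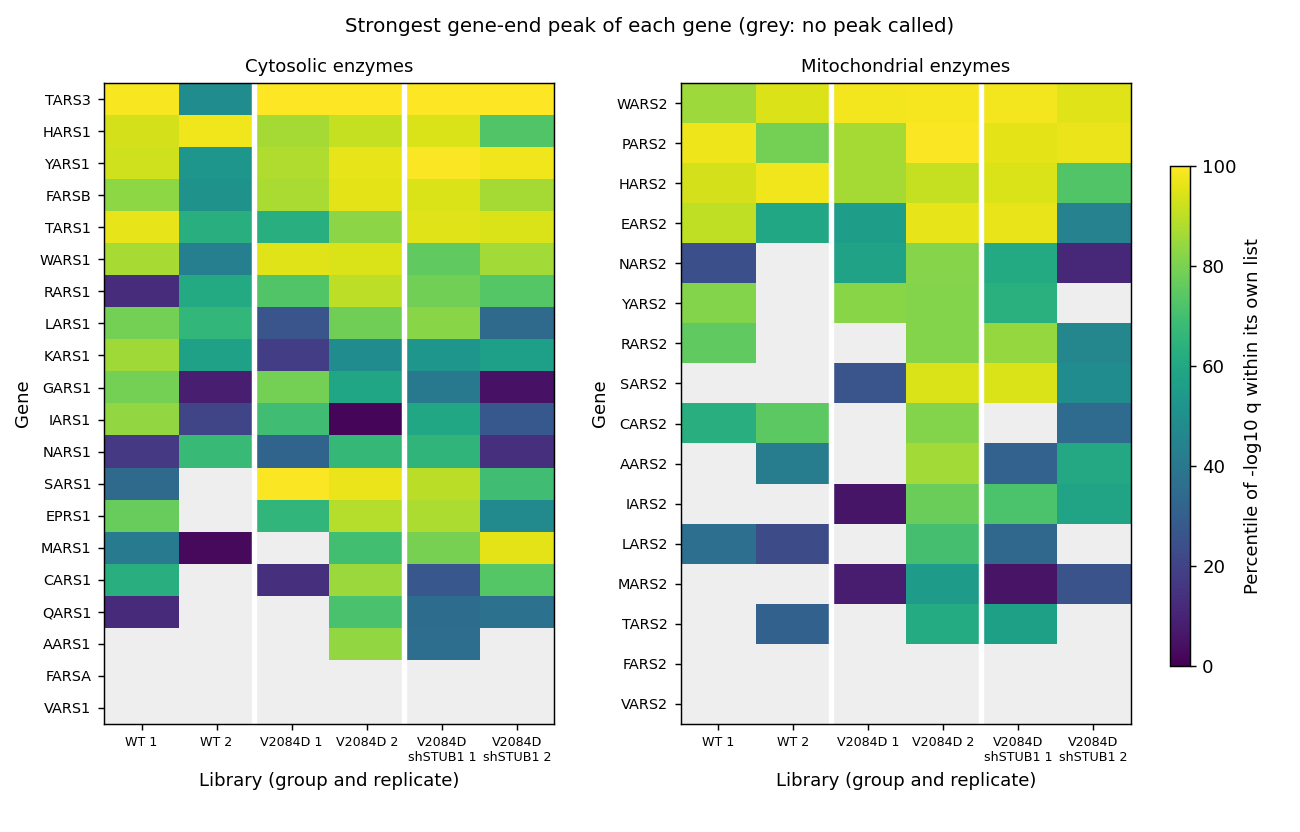
Each row is a gene and each column a library; colour gives the percentile of −log10 q of the gene's strongest peak within that library's own list, and grey marks no called peak. WT replicate 2 has the most grey cells, and FARSA, VARS1, FARS2 and VARS2 are grey throughout. Only peaks at gene ends count, so FARS2 is grey although its RefSeq starts had peaks.

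The cytosolic enzymes had the fuller rows. Of 20, 12 (60%) had a peak in all 6 libraries, 4 in 5, 1 in 4, 1 in 2 and 2 in none. Of 16 mitochondrial enzymes 4 (25%) had a peak in all 6, 1 in 5, 8 in 4, 1 in 3 and 2 in none. The median was 6 libraries for a cytosolic and 4 for a mitochondrial gene. Among 13 pairs of a cytosolic and a mitochondrial gene that share a name stem, the cytosolic gene had a peak in more libraries in 9 and in the same number in 3, and the mitochondrial gene in more in 1 (AARS1 in 2 libraries, AARS2 in 4). Outside these pairs, EPRS1, the cytosolic enzyme for glutamate and proline, had a peak in 5 libraries, and its mitochondrial counterparts EARS2 and PARS2 in 6 each. For phenylalanine, FARSB had a peak in all 6, and FARSA and FARS2 in none at the gene ends. At its RefSeq starts, which lie inside the gene, FARS2 had one in all 6. With RefSeq starts, 9 of 16 cytosolic and 5 of 14 mitochondrial genes had a peak in all 6. With GARS1 and KARS1 in the mitochondrial class it was 10 of 18 and 6 of 18. The order did not hold for strong peaks: with a −log10 q of at least 5, 1 of 20 cytosolic and 3 of 16 mitochondrial genes had a peak in all 6. Median percentiles were higher for the mitochondrial class in both WT libraries (81.5 against 79.3, and 67.4 against 52.5) and for the cytosolic class in the other 4.

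Genes of the multi-synthetase complex, a grouping made after the values were seen, are taken first. Of its 7 listed enzymes, IARS1, KARS1, LARS1 and RARS1 had a peak in all 6 libraries. EPRS1, which charges glutamate and proline, and MARS1, the methionine enzyme, had one in 5. QARS1, the glutamine enzyme, had one in 4. EPRS1 lacked a peak in WT replicate 2 and had folds of 5.34 to 8.0 elsewhere. MARS1 lacked one in V2084D replicate 1, and its folds ran from 3.75 in WT replicate 2 to 9.14 in V2084D shSTUB1 replicate 2. Its WT folds, 5.405 and 3.75, were the lowest. QARS1 lacked one in WT replicate 2 and V2084D replicate 1 and stayed between 4.38 and 6.80.

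IARS1, the cytosolic isoleucine enzyme, had a peak in every library, at ranks that varied widely. Its folds were 7.43 and 4.73 for WT, 6.16 and 3.37 for V2084D and 6.17 and 4.94 for V2084D shSTUB1. The WT replicates lay at percentiles 83.9 and 21.1 of their lists and the V2084D replicates at 69.3 and 1.67, so the deepest library gave the weakest rank, and the groups overlapped. KARS1, which charges lysine in both compartments, had folds of 7.64 and 5.92 for WT, 4.55 and 5.46 for V2084D and 5.67 and 5.88 for V2084D shSTUB1. Both WT values were above the other 4, but the lower of them, 5.92, barely exceeded 5.88, and the peaks of the 6 libraries had no base common to all. Both shSTUB1 values were above both V2084D values. In every library its peak also came within 1000 bp of an end of TERF2IP, a telomere protein gene, so it cannot be assigned to KARS1 alone.

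GARS1, the glycine enzyme of both compartments, had folds of 6.90 and 4.17 for WT, 6.55 and 5.74 for V2084D and 5.09 and 3.74 for V2084D shSTUB1. Both V2084D values were above both shSTUB1 values, and WT overlapped each of these groups. At a −log10 q of at least 5, GARS1 was called in each V2084D library but not with the STUB1 knockdown (0.766% of all genes). NARS1, the asparagine enzyme, had 4.48 and 6.34, 5.0 and 6.57, and 6.4 and 4.35 in the same order, again overlapping. KARS1, GARS1, IARS1 and NARS1 ranked lowest by mean percentile among the 16 open in all libraries, NARS1 last at 43.7.

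TARS3, a second cytosolic threonine enzyme, had the strongest single peaks of the family. Its folds were 10.3 and 5.5 for WT, 10.5 and 11.8 for V2084D and 11.5 and 11.2 for V2084D shSTUB1. In 5 libraries this placed it at percentile 98.9 or above, and WT replicate 2 stood apart at 48.6 with 9 reads at the summit. Both WT folds were the lowest, with 10.3 close under 10.5. YARS1, the tyrosine enzyme, had the widest peaks, up to 1455 bp in V2084D replicate 2, shared with S100PBP. Its folds were 7.14 and 5.16 for WT, 5.79 and 6.14 for V2084D and 7.93 and 6.71 for V2084D shSTUB1. Both shSTUB1 values were above both V2084D values, and WT overlapped each of these groups. SARS1, the serine enzyme, lacked a peak in WT replicate 2. Its fold was 5.0 in WT replicate 1, 9.63 and 8.62 for V2084D and 7.36 and 5.88 for V2084D shSTUB1, so the single WT peak was the weakest of the 5, and both V2084D values were above both shSTUB1 values. FARSB, TARS1 and WARS1, for phenylalanine, threonine and tryptophan, had mean percentiles of 83.0, 82.2 and 80.2, and RARS1 and LARS1, for arginine and leucine, 64.7 and 61.2. WT folds were the lowest at FARSB (7.065 and 5.696, the others from 7.143) and RARS1 (4.348 and 6.081, the others from 6.338). Both shSTUB1 folds were above both V2084D folds at TARS1 (8.029 and 8.182 against 5.729 and 6.522). At WARS1 they were below (6.202 and 6.957 against 7.456 and 7.849). CARS1, for cysteine, had a peak in 5 libraries with folds of 4.38 to 8.43.

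**Figure D3:**
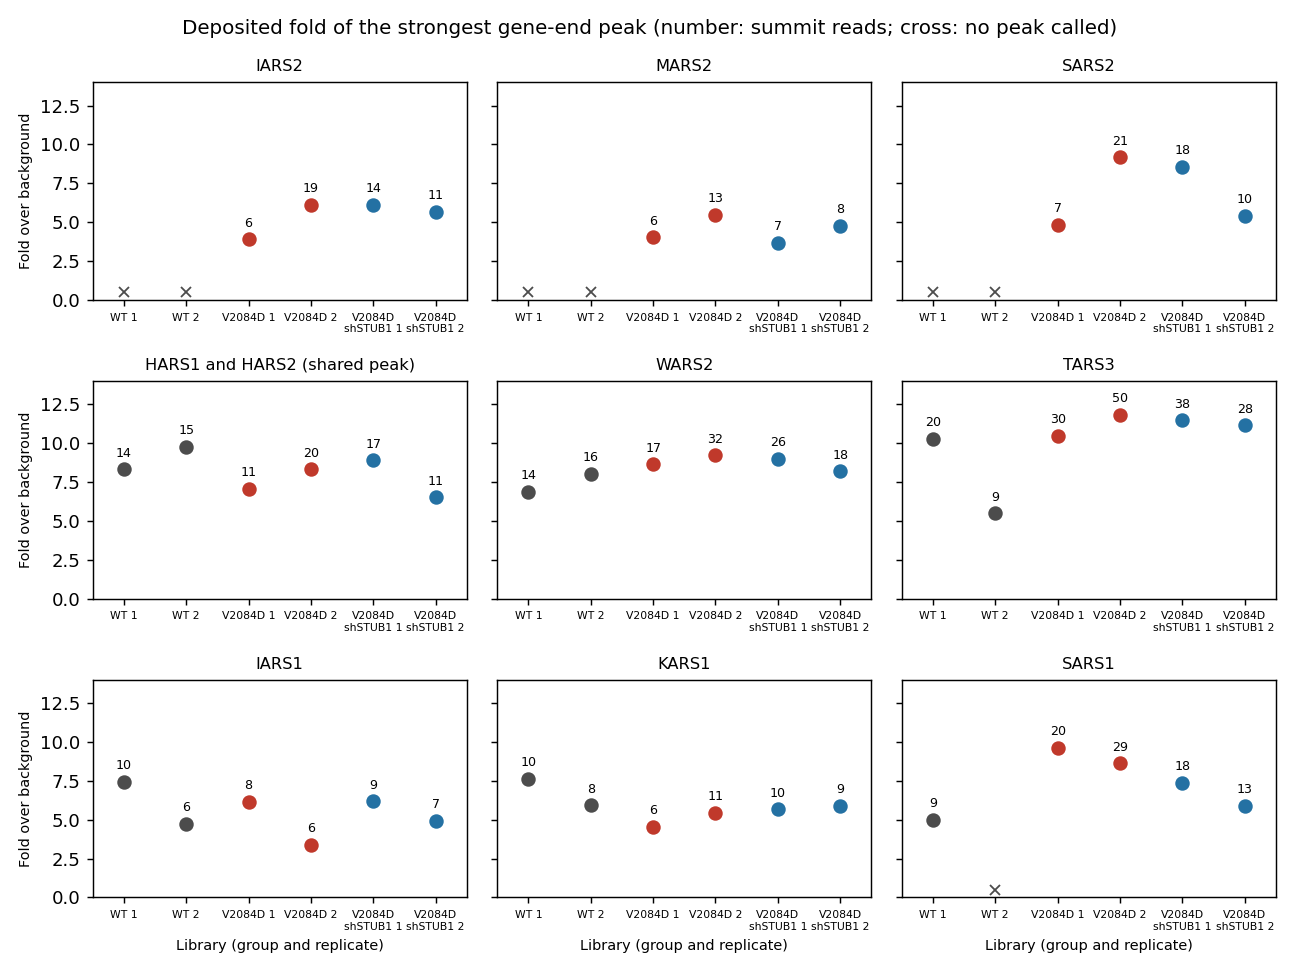
Deposited fold over background (vertical axis) of the strongest gene-end peak in each library for 9 members, with the reads at its summit printed above each point; crosses mark libraries with no called peak. IARS2, MARS2 and SARS2 have crosses in both WT libraries alone, SARS1 in WT replicate 2 alone, and the other panels have none.

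WARS2 and PARS2, the mitochondrial tryptophan and proline enzymes, ranked first and second of the family by mean percentile (95.0 and 92.5). WARS2 had folds of 6.88 and 8.02 for WT, 8.65 and 9.22 for V2084D and 9.0 and 8.19 for V2084D shSTUB1. Its WT folds were the lowest, with 8.02 close under 8.19. Its summit reads divided by relative depth were 13.81 and 16, 14.59 and 17.45, and 17.45 and 14.61 in the same order. In these reads all groups overlapped. PARS2 had folds of 8.80 and 6.57, 6.47 and 10, and 7.90 and 8.10, with overlap between all groups. EARS2, the mitochondrial glutamate enzyme, was open in all 6 with folds of 5.38 to 9.76, on a peak shared with UBFD1.

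HARS1 and HARS2, the histidine enzymes of cytosol and mitochondria, are head-to-head neighbours with starts 85 bp apart on chromosome 5, and 1 peak served both in every library. They are thus a single measurement counted under both classes. Its folds were 8.33 and 9.76 for WT, 7.06 and 8.33 for V2084D and 8.91 and 6.52 for V2084D shSTUB1. WT and V2084D met at 8.33, and the shSTUB1 pair overlapped both. The window of 300 bases at the HARS2 start, which takes in the HARS1 start as well, is printed with the WARS2 window. All windows run from 250 bases before a RefSeq start to 50 after it, 5′ to 3′ on the gene's strand, from RefSeq (GRCh38.p14), and capitals mark matches to the motifs spelled out with the promoter counts.
HARS2 (chr5:140691205-140691504, plus strand): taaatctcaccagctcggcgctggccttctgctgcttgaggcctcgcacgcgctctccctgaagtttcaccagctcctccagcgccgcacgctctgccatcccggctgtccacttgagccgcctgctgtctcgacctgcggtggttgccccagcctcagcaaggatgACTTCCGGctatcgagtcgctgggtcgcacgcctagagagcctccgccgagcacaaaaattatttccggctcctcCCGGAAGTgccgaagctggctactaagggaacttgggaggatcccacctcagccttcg
WARS2 (chr1:119140623-119140922, minus strand): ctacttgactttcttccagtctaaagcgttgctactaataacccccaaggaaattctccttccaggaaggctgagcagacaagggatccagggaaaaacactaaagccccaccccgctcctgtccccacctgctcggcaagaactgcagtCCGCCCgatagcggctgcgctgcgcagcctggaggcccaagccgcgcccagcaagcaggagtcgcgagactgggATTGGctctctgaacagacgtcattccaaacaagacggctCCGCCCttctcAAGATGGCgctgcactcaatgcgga
The capitals in HARS2 are the ETS word, 1 copy on each strand. WARS2 holds an SP/KLF word on either side of the start, an NF-Y word and the YY1 word just inside the gene.

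The other mitochondrial genes were called in some libraries only. NARS2 (asparagine) had a peak in 5 libraries. AARS2, CARS2, LARS2, RARS2 and YARS2, for alanine, cysteine, leucine, arginine and tyrosine, had one in 4 each, with folds from 4.32 in NARS2 to 8.86 in AARS2. TARS2 (threonine) had one in 3. Of these 7, NARS2, RARS2 and YARS2 lacked a peak in WT replicate 2, AARS2 and TARS2 in WT replicate 1, and AARS2, CARS2, LARS2, RARS2 and TARS2 in V2084D replicate 1. CARS2 also lacked one in V2084D shSTUB1 replicate 1, and LARS2, TARS2 and YARS2 in V2084D shSTUB1 replicate 2. V2084D replicate 2 had all 7.

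The comparison of WT with V2084D asks where accessibility differs when the missense protein stands in for the normal one. IARS2, MARS2 and SARS2, the mitochondrial isoleucine, methionine and serine enzymes, were called open in each V2084D library but not in WT. That is 3 of 36 members (8.33%), where 5.07% of all genes had the pattern. No member had the opposite pattern, which 0.0501% of all genes had. The same 3 genes, and no other member, were called in each V2084D shSTUB1 library but not in WT, against 7.07% of all genes. These comparisons share the WT libraries. A peak in all 4 V2084D and shSTUB1 libraries with none in WT was thus found at 3 members, against 3.06% of all genes.

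The 3 genes differed in strength. IARS2 had folds of 3.89 and 6.10 with V2084D, then 6.10 and 5.66 with the STUB1 knockdown added, on 6 and 19, and 14 and 11 summit reads, and lay between percentiles 5.65 and 77.4 of the lists. MARS2 had 4.02 and 5.47, then 3.67 and 4.79, on 6 and 13, and 7 and 8 reads, and lay between percentiles 5.35 and 55.0 of the lists. SARS2 had 4.82 and 9.17, then 8.56 and 5.39, on 7 and 21, and 18 and 10 reads, and lay between percentiles 26.5 and 94.2. In each gene V2084D replicate 1 was the weaker of its pair and rested on 6 or 7 reads, at a relative depth of 1.17 against 1.014 and 1 for WT. The peaks of the 4 libraries had common bases in each of the 3 genes. The SARS2 peak also came within 1000 bp of an end of MRPS12, a mitochondrial ribosomal protein gene, which had the same pattern. With every list shortened to its 7234 strongest summits, SARS2 and NARS2 had the V2084D pattern (1.97% of all genes) and IARS2 the shSTUB1 one (1.75%). The opposite patterns then held more members. KARS1, LARS2 and MARS1 were WT-only against V2084D (1.73% of all genes), and CARS2, GARS1, IARS1 and LARS2 against shSTUB1 (1.75%). With a −log10 q of at least 5, RARS1 and SARS1 had the V2084D pattern (3.44% of all genes), and IARS2, MARS1, RARS1 and SARS1 the shSTUB1 one (6.11%). Without WT replicate 1, the counts were 8 and 9 in place of 3 and 3. The share of all genes was not recomputed for this, so these counts have nothing to stand beside.

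The promoter windows of these 3 genes, and of IARS1 as the cytosolic counterpart of IARS2, show the DNA around their starts. The IARS2 peak of V2084D shSTUB1 replicate 2 and the MARS2 peak of V2084D replicate 2 lay wholly downstream of these windows.
IARS2 (chr1:220093882-220094181, plus strand): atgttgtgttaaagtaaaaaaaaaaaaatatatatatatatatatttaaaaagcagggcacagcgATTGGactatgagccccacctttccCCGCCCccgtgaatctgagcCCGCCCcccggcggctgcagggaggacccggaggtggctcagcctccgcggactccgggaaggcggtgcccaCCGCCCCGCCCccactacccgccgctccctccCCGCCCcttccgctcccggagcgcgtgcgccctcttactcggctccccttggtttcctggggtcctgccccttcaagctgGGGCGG
MARS2 (chr2:197705119-197705418, plus strand): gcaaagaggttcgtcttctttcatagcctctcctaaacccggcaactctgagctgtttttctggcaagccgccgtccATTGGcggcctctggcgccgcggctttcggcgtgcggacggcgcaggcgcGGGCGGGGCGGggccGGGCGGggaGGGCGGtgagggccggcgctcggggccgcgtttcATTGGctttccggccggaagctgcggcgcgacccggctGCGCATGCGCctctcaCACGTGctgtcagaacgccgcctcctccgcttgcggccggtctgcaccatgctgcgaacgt
SARS2 (chr19:38930714-38931013, minus strand): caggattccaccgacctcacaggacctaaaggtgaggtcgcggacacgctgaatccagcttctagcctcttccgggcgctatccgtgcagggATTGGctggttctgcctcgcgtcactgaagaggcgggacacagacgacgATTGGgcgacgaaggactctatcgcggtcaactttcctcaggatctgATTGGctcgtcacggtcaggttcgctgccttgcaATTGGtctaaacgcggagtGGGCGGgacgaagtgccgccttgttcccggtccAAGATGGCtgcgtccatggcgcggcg
IARS1 (chr9:92293648-92293947, minus strand): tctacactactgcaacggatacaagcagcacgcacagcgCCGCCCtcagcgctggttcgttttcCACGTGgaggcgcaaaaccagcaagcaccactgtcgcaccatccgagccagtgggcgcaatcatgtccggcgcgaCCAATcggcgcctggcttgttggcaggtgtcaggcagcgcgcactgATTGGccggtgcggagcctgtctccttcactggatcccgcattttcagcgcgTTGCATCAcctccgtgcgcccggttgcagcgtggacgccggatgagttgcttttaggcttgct
IARS2 carries the SP/KLF word 6 times and MARS2 4 times. MARS2 has the NRF1 word at 27 to 18 bases before the start, read on both strands of 1 site. SARS2 has 4 NF-Y words in the 158 bases before its start and the YY1 word inside the gene. IARS1 has the amino acid response word, in reverse, 13 to 6 bases before its start, beside SP/KLF, NF-Y and E-box words further up.

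Setting V2084D shSTUB1 beside V2084D addresses the STUB1 knockdown in cells with the missense protein, on the V2084D libraries already compared with WT. No member was called throughout one of these groups and absent from the other, in either direction. Among all genes 0.656% were V2084D-only and 0.365% shSTUB1-only. Without V2084D replicate 2 the shSTUB1-only count was 4, and the WT-only count against V2084D was 3, with no share of all genes recomputed. Against WT, no member was open in both WT and in neither shSTUB1 library (0.135% of all genes).

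The 4 genes without a peak at either end were FARS2, FARSA, VARS1 and VARS2. FARS2, the mitochondrial phenylalanine enzyme, is annotated from an outer start at 5249934 on chromosome 6, but the RefSeq promoter table places its starts 11073 and 11579 bp further in. At those starts a peak was called in all 6 libraries, with folds of 5.5 and 8.07 for WT, 6.52 and 7.96 for V2084D and 7.06 and 8.16 for V2084D shSTUB1. The tabled starts of CARS2 likewise lie 7406 and 7007 bp inside its outer start, and a peak was called there in 3 libraries, while its gene-end peak was shared with ING1. FARSA, the catalytic subunit of the cytosolic phenylalanine enzyme, had no peak at its start either. The nearest peak lay 2928 to 4633 bp from a gene end, while FARSB, its partner subunit, was open in all 6. Its window is shown because it carries no called peak, and it was chosen after the values were seen.
FARSA (chr19:12933662-12933961, minus strand): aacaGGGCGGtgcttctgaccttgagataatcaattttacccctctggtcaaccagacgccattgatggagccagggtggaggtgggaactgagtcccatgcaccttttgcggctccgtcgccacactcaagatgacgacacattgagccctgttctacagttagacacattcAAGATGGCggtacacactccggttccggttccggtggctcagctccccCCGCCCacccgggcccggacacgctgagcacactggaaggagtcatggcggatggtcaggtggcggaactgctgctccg
VARS1 and VARS2, the valine enzymes, both lie on chromosome 6 in the major histocompatibility complex. No peak was called within 31075 bp of a VARS1 end or 135213 bp of a VARS2 end. Of the 62 other genes within 500 kb of VARS1, 58.1% had no peak in any library, and of the 33 around VARS2, 69.7%, against 41.8% of all genes. None of these neighbours had a peak in all 6 libraries. The lists also hold 18 to 192 summits per library on alternate contigs of chromosome 6, and the part of these in the missing peaks was not tested.

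Summit positions were read for peaks near starts. Of the 36 members, 30 had a promoter window in the RefSeq table, and the 145 peaks called within 1000 bp of those starts had a median summit 42 bases upstream (quartiles -106 and 11). Summits lay within 250 bp of a start in 84.8%, and the same share over all genes was not computed. The peaks were picked for lying within 1000 bp of a start, so this cannot show that peaks favour starts. The peaks of HARS1 and HARS2 were counted under both genes. SARS2 was the tightest of the group-patterned genes, with summits from 1 base upstream to 37 downstream in 4 libraries, and IARS2 the loosest, from 73 upstream to 432 downstream. AARS1, the cytosolic alanine enzyme, had peaks at both ends in the same 2 libraries, the stronger at the far end next to EXOSC6. Of 32 members with a peak, 12 (37.5%) shared it with another protein-coding gene's end in at least 1 library, against 30.8% of all genes with a peak.

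**Figure D4:**
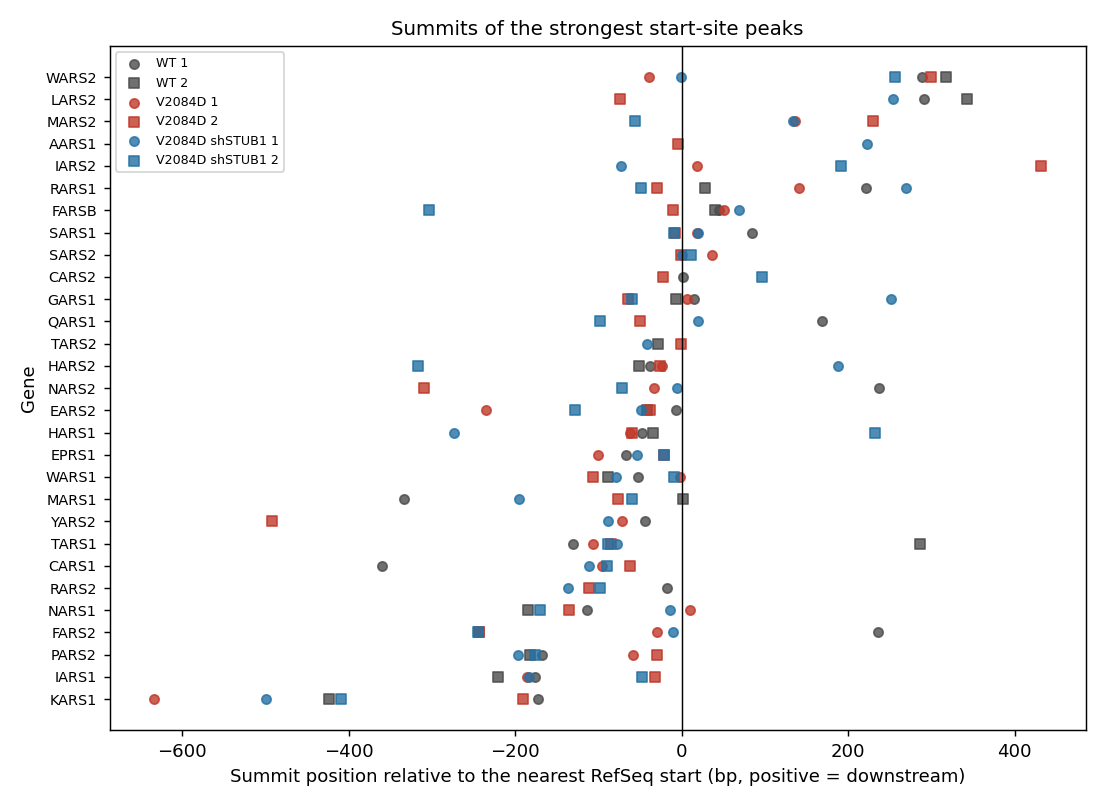
Position of each start-site summit relative to the nearest RefSeq start (bp; negative values upstream), with 1 row per gene and 1 point per library (colour for group, circle for replicate 1, square for replicate 2). Most of the 145 points lie within 250 bp of the start, and KARS1 summits reach 634 bp upstream.

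Promoter composition was close to that of all genes. Median GC content was 62.0% in the 30 members and 62.7% in 15812 protein-coding genes, with 23 and 22 CpG dinucleotides. FARSB, open in all 6 libraries, had the lowest GC content of the members at 46.7%. Searched on both strands, the amino acid response word TGATGNAA occurred in 7 of 30 members (23.3%) and 2.54% of all windows. The 7 were AARS1, CARS1, IARS1, MARS1, NARS1, TARS1 and YARS2, so 6 of 16 cytosolic and 1 of 14 mitochondrial genes, and in CARS1, IARS1, MARS1, NARS1 and TARS1 it began within 20 bases of the start. Of those 7 genes 3 had a peak in all 6 libraries and AARS1 in 2. The ETS word CCGGAAGT was in 7 members (23.3%, all genes 6.2%), where HARS1 and HARS2 hold the same pair of sites and count as 2, and the YY1 word AAGATGGC in 6 (20%, 3.91%). The NRF1 word GCATGCGC was in MARS2 and YARS2 (6.67%, 4.26%), the SP/KLF word GGGCGG in 21 (70%, 58.5%), the NF-Y word CCAAT in 16 (53.3%, 36.3%) and the E-box CACGTG in 4 (13.3%, 8.87%). Neither the CRE word TGACGTCA (2.59% of all windows) nor the AP-1 word TGANTCA (5.76%) was in a member's window. Among the 101 matches in members, 1 pair of different words overlapped. A match is a string of letters and not a shown site of binding.

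Partner genes of the synthetases had a peak in a median of 5 libraries. In a list of 17 scaffold, editing, tRNA and elongation genes, 5 (29.4%, against 15.8% of all genes) had a peak in all 6 libraries. None lacked one throughout, against 41.8% of all genes, and 9 to 17 had one per library. AIMP2, a scaffold of the multi-synthetase complex, had folds of 7.33 and 8.42 for WT, 7.98 and 8.62 for V2084D and 7.60 and 7.52 for V2084D shSTUB1. Both V2084D values were above both shSTUB1 values, and WT overlapped each of these groups. AIMP1 and EEF1E1, the other scaffolds, had a peak in 5. The V2084D-only pattern against WT was found at 3 of the 17, where 5.07% of all genes had it: AARSD1, an editing factor gene, SEPSECS, of selenocysteine tRNA synthesis, and QRSL1, a subunit of the mitochondrial glutamine amidotransferase. AARSD1 and QRSL1 were also open in both shSTUB1 libraries, and SEPSECS in 1. Among all genes 7.07% were shSTUB1-only against WT.

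Genes of the amino acid response and supply had a peak in a median of 2 libraries. Of 19, 4 (21.1%, against 15.8% of all genes) had a peak in all 6 libraries (ATF4, CHAC1, SESN2 and SLC7A11). There were 3 with none (DDIT3, CEBPB and SLC7A5), against 41.8% of all genes, and 6 to 14 had one per library. ATF4 had folds of 3.53 and 5.21 for WT, 3.96 and 5.0 for V2084D and 4.59 and 4.85 for V2084D shSTUB1, with overlap of all groups. PHGDH, the first enzyme of serine synthesis, was V2084D-only against both other groups (folds 6.08 and 4.03). Among all genes 5.07% were V2084D-only against WT and 0.656% against shSTUB1. SLC7A1, an arginine transporter gene, was shSTUB1-only against both WT and V2084D (folds 4.72 and 6.04). Among all genes 7.07% were shSTUB1-only against WT and 0.365% against V2084D. ASNS, the asparagine synthetase gene, and SLC3A2 were open in both shSTUB1 libraries, in neither WT library and in 1 V2084D library each.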

How the data were processed

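Peak lists of 6 ATAC-seq libraries were used. The submitters' processing notes name MACS2, Bowtie2, Trimmomatic, Picard, SAMtools, deepTools and bedtools, and build hg38. Versions, settings and any cut-site shift were not given in the sources used here. Each library has its own deposited list, which holds the authors' fold (a ratio over local background), −log10 p and −log10 q, and a score equal to the whole part of 10 times −log10 q.

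Peaks on chromosomes 1 to 22 and X were set against RefSeq genes (GRCh38.p14), with 1 base of overlap enough. Summit reads were recovered from fold and p under MACS2's Poisson model within 0.001 in −log10 p, keeping backgrounds in steps of 0.02 reads where several counts would do (99.99% to 100% of summits whole). Relative depth is the ratio of the lowest backgrounds. Read totals were not used. The code was tested on simulated data. Python 3.11.15, pandas 2.3.3 and scipy 1.17.1 were used.

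Members and lists were chosen with earlier results of these data known, so no test was made. With 2 libraries a group, the smallest two-sided p of an exact permutation test is 0.333. Values in every library are given for group-patterned members, the 6 highest and 4 lowest by mean percentile among those open in all libraries, members that share a peak with another member, and GARS1 and KARS1 (no member had a peak in 1 library). SARS1, FARS2 and the genes given values from other lists were chosen after their values were seen. The same holds for the group folds of FARSB, MARS1, RARS1, TARS1 and WARS1. Other settings tried were lists of equal length, a −log10 q threshold of 5, windows of 500 and 2000 bp, gene starts only, summits in place of peaks, each library left out, and other classings of GARS1 and KARS1. RefSeq start sites, and leaving out HARS1 and HARS2, were added after the data were seen.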

Additional observations from a re-analysis of the deposited data

Results flagged for a closer look

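Peaks outside the chromosomes used stood above the limit that a count of 0 allows (3 counts). On alternate contigs of chromosome 6 the lists held 33 and 18 summits for WT, 35 and 192 for V2084D and 107 and 57 for V2084D shSTUB1. These contigs carry other versions of the region in which VARS1 and VARS2 lie, and whether any of the summits belong to those genes was not analysed here.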

How the results depend on the processing

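Of 172 recomputed counts, 146 stayed within 1.5 times their main value and 26 did not. Some of the 146 could not move. A count comparing 2 groups was also retaken with a library of the other group left out. Leaving out GARS1 and KARS1 cannot change the mitochondrial count. Counts from settings that cover 30 members were set against counts of 36. The tally is therefore no measure of how stable the counts are. Some settings keep fewer peaks, and the cause of the moves was not tested. With a −log10 q of at least 5, 4 members (11.1%, 1 of them cytosolic) had a peak in every library, against 3.18% of all genes. At that threshold 19 and 7 had one in the WT replicates, 12 and 31 in the V2084D replicates and 23 and 15 in the V2084D shSTUB1 replicates. Per-library shares of all genes were not recomputed. Against shSTUB1, 1 was V2084D-only (GARS1, 0.766% of all genes) and 1 WT-only (CARS2, 0.17%). At equal length, 9 members (25%, 6 of them cytosolic) were open in every library, against 8.41% of all genes. Per library, 22 and 21 members had a peak for WT, 20 and 23 for V2084D and 18 and 16 for V2084D shSTUB1. The shSTUB1 counts were thus the lowest, while in the full lists both were above both WT counts. No per-library share of all genes was computed at this length. Between V2084D and shSTUB1, 2 were V2084D-only (1.68% of all genes) and 1 shSTUB1-only (1.27%). Against WT, 1 was shSTUB1-only, and 3 and 4 were WT-only against V2084D and shSTUB1. At this length the WT-only patterns were at 1.73% and 1.75% of all genes and the reverse ones at 1.97% and 1.75%. With a 500 bp window, 1 was WT-only against shSTUB1 (CARS2), a pattern of 0.12% of all genes. Members with no peak numbered 2 of 30 with gene starts only (41% of all genes) and 1 of 30 with RefSeq start sites (37.9%). Leaving out 1 library, the V2084D-only count against WT ran from 3 to 8, shSTUB1-only against WT from 3 to 9, WT-only against V2084D from 0 to 3 and against shSTUB1 from 0 to 1, shSTUB1-only against V2084D from 0 to 4, and its reverse from 0 to 1. Leaving out a library relaxes the rule, so these counts can only stay or rise, and each lower end is the main value by construction. Shares of all genes were not recomputed with a library left out. No paired analysis was possible because the results come from no test. Depth limits all of this: a summit at the median rested on 8 to 12 reads.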
